A study of Mus musculus with 12 samples.

Results

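The mitochondrial ribosomal protein genes are the nuclear genes whose products build the ribosome inside mitochondria. They were taken as the rows of the expression table whose Ensembl identifier belongs to a protein-coding mouse gene with a symbol of Mrpl or Mrps followed by a number. This gave 78 of the 12591 genes of the table, 49 with an Mrpl symbol and 29 with an Mrps symbol. All 78 such genes of the GENCODE vM39 annotation were in the table, so none had been lost to the authors' filter of at least 1 CPM (a read count scaled to a fixed library size) in all samples.

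The cells were mouse embryonic fibroblasts of the strain C57 PER2::LUC, in which the clock protein PER2 carries luciferase, and they were treated after they had reached confluence. Dishes received 10 μM deazaneplanocin A (DZ), an inhibitor of the enzyme AHCY that clears S-adenosylhomocysteine, or 1 mM adenine, or 1 mM S-adenosylmethionine (SAM), the methyl donor of the cell. Every dish, those of the control (CTL) included, contained 3.3 mM HCl, and RNA was taken after 24 h from 3 dishes of each of the 4 groups. The study asked whether excess SAM acts on cells as adenine and AHCY inhibition do. Nothing in the labels says that the dishes of a group came from separate cell preparations, so the p-values measure the spread between dishes, which may be technical.

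Mitochondria keep a ribosome of their own, built of a large and a small subunit, which translates the few mRNAs encoded by mitochondrial DNA into core subunits of the respiratory chain and the ATP synthase. Its rRNAs come from the mitochondrial genome, whereas its proteins are all made in the cytosol from nuclear genes and imported. Some of these proteins have a homolog in the bacterial ribosome and others are found in mitochondria alone, and promoters of nuclear genes for mitochondrial proteins often hold binding motifs of NRF1, of the ETS family factor GABPA, and of YY1.

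Reads on the listed genes, recovered from the deposited values as whole reads, ranged from 45649534 to 56789090 per library, and a member gene had between 185 and 5327 reads in a library. The SD of a member among the 3 dishes of a group had a median of 0.056 on the log2 scale and reached 0.68. Of 12 fibroblast markers 10 were in the table, without Dcn and Lum, with a summed level of 22902 to 23389 CPM in CTL, 28838 to 29530 in DZ, 26222 to 28655 in adenine, and 17319 to 18806 in SAM. The lower sum in SAM went with Fn1, an abundant matrix protein gene that fell by 1.58, whereas 8 of the 10 markers rose and their median was 0.41. None of 5 epithelial and 4 endothelial markers was in the table, which holds only genes above the filter, and of 7 leukocyte markers only Cd68 was, at 3.03 to 4.0 CPM in CTL, 2.73 to 3.78 in DZ, 10.8 to 12.3 in adenine, and 15.6 to 17.7 in SAM. Its part in the results below was not tested. Less RNA of a gene per cell and fewer cells that express it cannot be told apart in RNA of whole dishes.

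Promoter windows of 300 bases, from 250 before to 50 after a RefSeq transcription start, were found for 69 of the 78 genes in a RefSeq table of build GRCm38.p6. They were searched on both strands for CCGGAAG, the motif of the ETS family, and for the motifs of NRF1 and YY1, none of which contains another. The ETS motif was in 34.7% of the 75 member windows, against 18.3% of the windows of other protein-coding genes in the table and 8.86% of all windows in the RefSeq table. The NRF1 motif was in 17.3% of member windows, against 10.4% and 4.6%, and the YY1 motif in 9.33%, against 2.47% and 0.986%. At least 1 of these motifs was in 52.0% of member windows, 28.3% of those of other protein-coding genes in the table, and 13.3% of all windows. In cytosolic ribosomal protein genes the ETS share was 36.4% and the NRF1 share 7.58%. In genes of respiratory chain subunits, the Atp5 genes of the ATP synthase included, they were 20.8% and 22.6%. The YY1 share was 3.03% in the cytosolic family and 7.55% in the respiratory chain family. At least 1 motif was in 43.9% and 45.3% of the windows of these families, nearer to the members than to the other genes. A match is a description of the letters and not a binding site.

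The windows of the 2 members with the largest rise under SAM (Mrpl28 and Mrpl33) and of the 2 with the largest fall (Mrpl24 and Mrpl21) are shown because they mark both ends of the response, all read on the plus strand of GRCm39. The windows of Mrpl43, on the minus strand, and Mrps11, on the plus strand, were added after their values were seen. Mrpl43 was picked together with Mrpl55, as the 2 named members with a window that rose most under DZ. Of these, Mrpl43 alone is printed because it holds motif matches, so its printing says nothing on a link of motif and rise. Mrps11 was added because its window lies at the heads of a pair of member genes on opposite strands. The windows of Mrpl55, which rose most under DZ, and of Mrpl46, the other gene of that pair, hold no motif match and are not printed. Capitals mark a motif match on either strand.
Mrpl28, chr17:26342227-26342526: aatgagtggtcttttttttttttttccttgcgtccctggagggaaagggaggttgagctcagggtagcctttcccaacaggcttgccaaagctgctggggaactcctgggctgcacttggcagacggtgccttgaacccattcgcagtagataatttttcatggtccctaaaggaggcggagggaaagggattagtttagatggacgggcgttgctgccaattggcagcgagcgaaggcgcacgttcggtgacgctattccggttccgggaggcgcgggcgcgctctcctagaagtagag
Mrpl33, chr5:31771045-31771344: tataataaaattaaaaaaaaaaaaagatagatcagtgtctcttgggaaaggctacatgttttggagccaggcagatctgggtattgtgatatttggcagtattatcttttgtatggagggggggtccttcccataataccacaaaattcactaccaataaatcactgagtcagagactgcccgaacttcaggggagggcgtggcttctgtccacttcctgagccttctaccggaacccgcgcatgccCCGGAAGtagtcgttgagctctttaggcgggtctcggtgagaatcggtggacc
Mrpl24, chr3:87826601-87826900: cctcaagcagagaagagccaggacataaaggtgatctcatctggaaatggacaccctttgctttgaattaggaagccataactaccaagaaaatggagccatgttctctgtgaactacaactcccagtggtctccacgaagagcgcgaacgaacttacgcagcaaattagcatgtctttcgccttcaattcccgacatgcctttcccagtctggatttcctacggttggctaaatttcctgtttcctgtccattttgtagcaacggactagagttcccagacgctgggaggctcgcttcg
Mrpl21, chr19:3332792-3333091: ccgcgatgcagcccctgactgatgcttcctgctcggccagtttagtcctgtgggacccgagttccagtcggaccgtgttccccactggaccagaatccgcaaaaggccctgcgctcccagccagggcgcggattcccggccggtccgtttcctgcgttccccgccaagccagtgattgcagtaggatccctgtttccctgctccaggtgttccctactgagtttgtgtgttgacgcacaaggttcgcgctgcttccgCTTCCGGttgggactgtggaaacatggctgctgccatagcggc
Mrpl43, chr19:44994832-44995131: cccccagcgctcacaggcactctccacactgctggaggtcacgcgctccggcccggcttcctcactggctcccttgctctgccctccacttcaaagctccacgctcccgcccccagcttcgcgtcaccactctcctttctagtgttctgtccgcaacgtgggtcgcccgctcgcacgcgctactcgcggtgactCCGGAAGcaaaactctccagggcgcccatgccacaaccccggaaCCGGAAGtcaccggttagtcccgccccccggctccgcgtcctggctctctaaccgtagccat
Mrps11, chr7:78432629-78432928: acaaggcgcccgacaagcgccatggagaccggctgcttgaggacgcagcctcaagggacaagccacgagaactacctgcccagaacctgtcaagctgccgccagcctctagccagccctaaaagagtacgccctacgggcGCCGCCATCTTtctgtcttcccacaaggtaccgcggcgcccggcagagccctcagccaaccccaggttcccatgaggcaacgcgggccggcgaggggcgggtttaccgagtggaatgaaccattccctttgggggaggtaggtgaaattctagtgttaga

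With the first transcribed base counted as 0, the ETS match of Mrpl33 lies at -3 to 3 and that of Mrpl21 at 7 to 13, those of Mrpl43 lie at -56 to -50 and -12 to -6, and the YY1 match of Mrps11 lies at -110 to -100. No motif was found in the windows of Mrpl28 and Mrpl24, so of the 4 windows picked by size of change, 1 of those that rose and 1 of those that fell holds an ETS match. The RefSeq start of Mrpl33 lies 17016 bases from the start of its GENCODE gene, that of Mrpl43 790 bases, and that of Mrpl21 266 bases. Across the 69 genes, the 26 with an ETS match had a median log2 fold change of 0.19 under DZ, -0.05 under adenine, and -0.04 under SAM, and the 43 without had 0.17, -0.17, and -0.11. The 13 with an NRF1 match had 0.21, -0.25, and -0.17, and the 56 without had 0.18, -0.08, and -0.05. The 7 with a YY1 match had 0.16, -0.35, and -0.11, and the 62 without had 0.18, -0.1, and -0.06. The ranges with and without a motif overlapped, for the ETS motif under DZ from -0.63 to 0.57 with and from -0.26 to 0.83 without a match.

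Per kilobase of transcript, the levels of the members in CTL had a median of 4.27 (log2 CPM per kb of the median coding transcript), with quartiles at 3.58 and 5.01. Mrpl13, a core protein of the large subunit, and Mrpl33, a small protein of the same subunit, were the highest at 6.29 ± 0.042 and 6.29 ± 0.084 (SD, n = 3), followed by Mrpl2 at 5.97 ± 0.05 and Mrps10 at 5.93 ± 0.02. With the length of the canonical transcript, Mrpl33 moved to the fourth place. The lowest levels were those of Mrpl55 at 1.03 ± 0.24, Mrpl48 at 1.92 ± 0.19, and Mrps28 at 2.17 ± 0.16, of which the last pair did not differ by more than the sum of their SDs. With the canonical length Mrpl55 was still the lowest, but Mrpl17 and Mrps25, both at 1.71, came next. Under SAM, Mrpl33 stood at 7.1 and Mrpl13 at 5.77 per kb of the median coding transcript. The pair was level in CTL only with that length, since with the canonical length Mrpl33 stood at 5.82 and Mrpl13 at 6.23.

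Summed over the 78 genes, the level was 2663 to 2791 CPM in the CTL dishes (2719 ± 65, SD, n = 3) and 3107 to 3139 CPM in DZ (3127 ± 18), with no overlap. It was 2485 to 2550 CPM in adenine (2510 ± 35), below every CTL dish, and 2585 to 2763 CPM in SAM (2650 ± 98), which overlapped with CTL. These sums rest on the authors' normalized library sizes. Relative to the read totals, those sizes were 0.962 to 0.968 in CTL, 1.0035 to 1.0082 in adenine, and 1.0471 to 1.054 in SAM. With plain read totals adenine overlaps with CTL and the SAM dishes lie above CTL, while DZ stays highest. The large subunit went from 1858 ± 41 CPM in CTL to 2107 ± 17 in DZ, 1700 ± 25 in adenine, and 1799 ± 73 in SAM, and the small subunit from 844.7 ± 26 to 1003 ± 6.7, 787.3 ± 9.3, and 824 ± 24. The sums of both subunits thus stood highest in DZ and lowest in adenine.

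**Figure D1:**
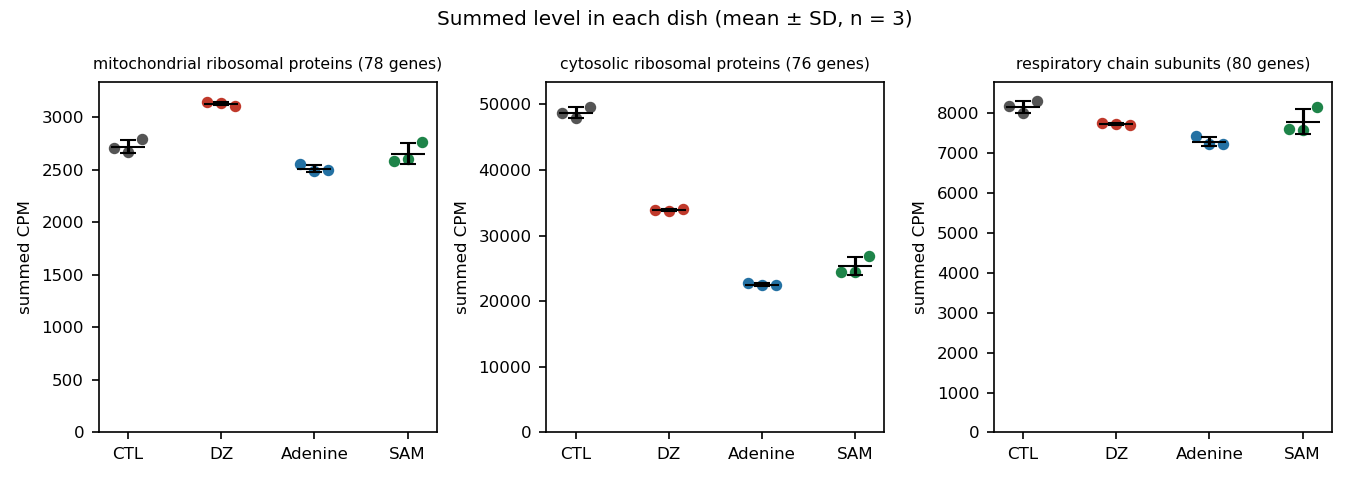
Summed level in CPM (vertical axis, from 0) of 3 families in each dish of CTL, DZ, adenine, and SAM; points are dishes and bars the mean ± SD of 3. The mitochondrial ribosomal protein genes lie between 3107 and 3139 CPM in DZ, above every other dish, whereas the cytosolic ribosomal protein genes lie between 22392 and 34069 CPM in all treated dishes, below the 47896 to 49565 CPM of CTL.

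The limma test used 1 model of all 4 groups and the log2 CPM values as deposited, and a gene was called at a Benjamini-Hochberg FDR under 0.01 over all 12591 genes. Under DZ, 42 of the 78 mitochondrial ribosomal protein genes rose, 1 fell, and 35 were not called. In the whole set of genes 45.9% were called in this comparison, 22.6% as higher and 23.4% as lower, so that the 53.8% of members called higher stood above that background and the 1.28% called lower stood below it. The median log2 fold change of the members was 0.19, against -0.0057 for all genes, and no member moved by 1 or more. With an absolute change of at least 0.5 required as well, 7 members were called under DZ, 5 under adenine, and 16 under SAM. That requirement was met by 1536, 3386, and 4425 of all 12591 genes, a larger share than of the members in each comparison. All 3 DZ dishes were above all 3 CTL dishes in 56 members and below them in 4, where 31.8% and 33.6% of all genes had such groups.

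The rise under DZ was spread over both subunits. Of 30 large subunit proteins with a bacterial homolog 14 rose and 1 fell, of 21 large subunit proteins particular to mitochondria 11 rose, of 16 small subunit proteins with a bacterial homolog 9 rose, and of 10 small subunit proteins particular to mitochondria 8 rose, with medians of 0.19, 0.16, 0.21, and 0.29. Mrps18a and Mrps30 are counted here in the large subunit, where their proteins sit despite their symbols. The groups follow the unified nomenclature of ribosomal proteins. Under it Mrps18a and Mrps18b are counted as particular to mitochondria, although they are paralogs of Mrps18c, which is counted with a bacterial homolog. Mrps36, which is known as a subunit of the oxoglutarate dehydrogenase complex and was put in neither subunit, was not called.

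**Figure D2:**
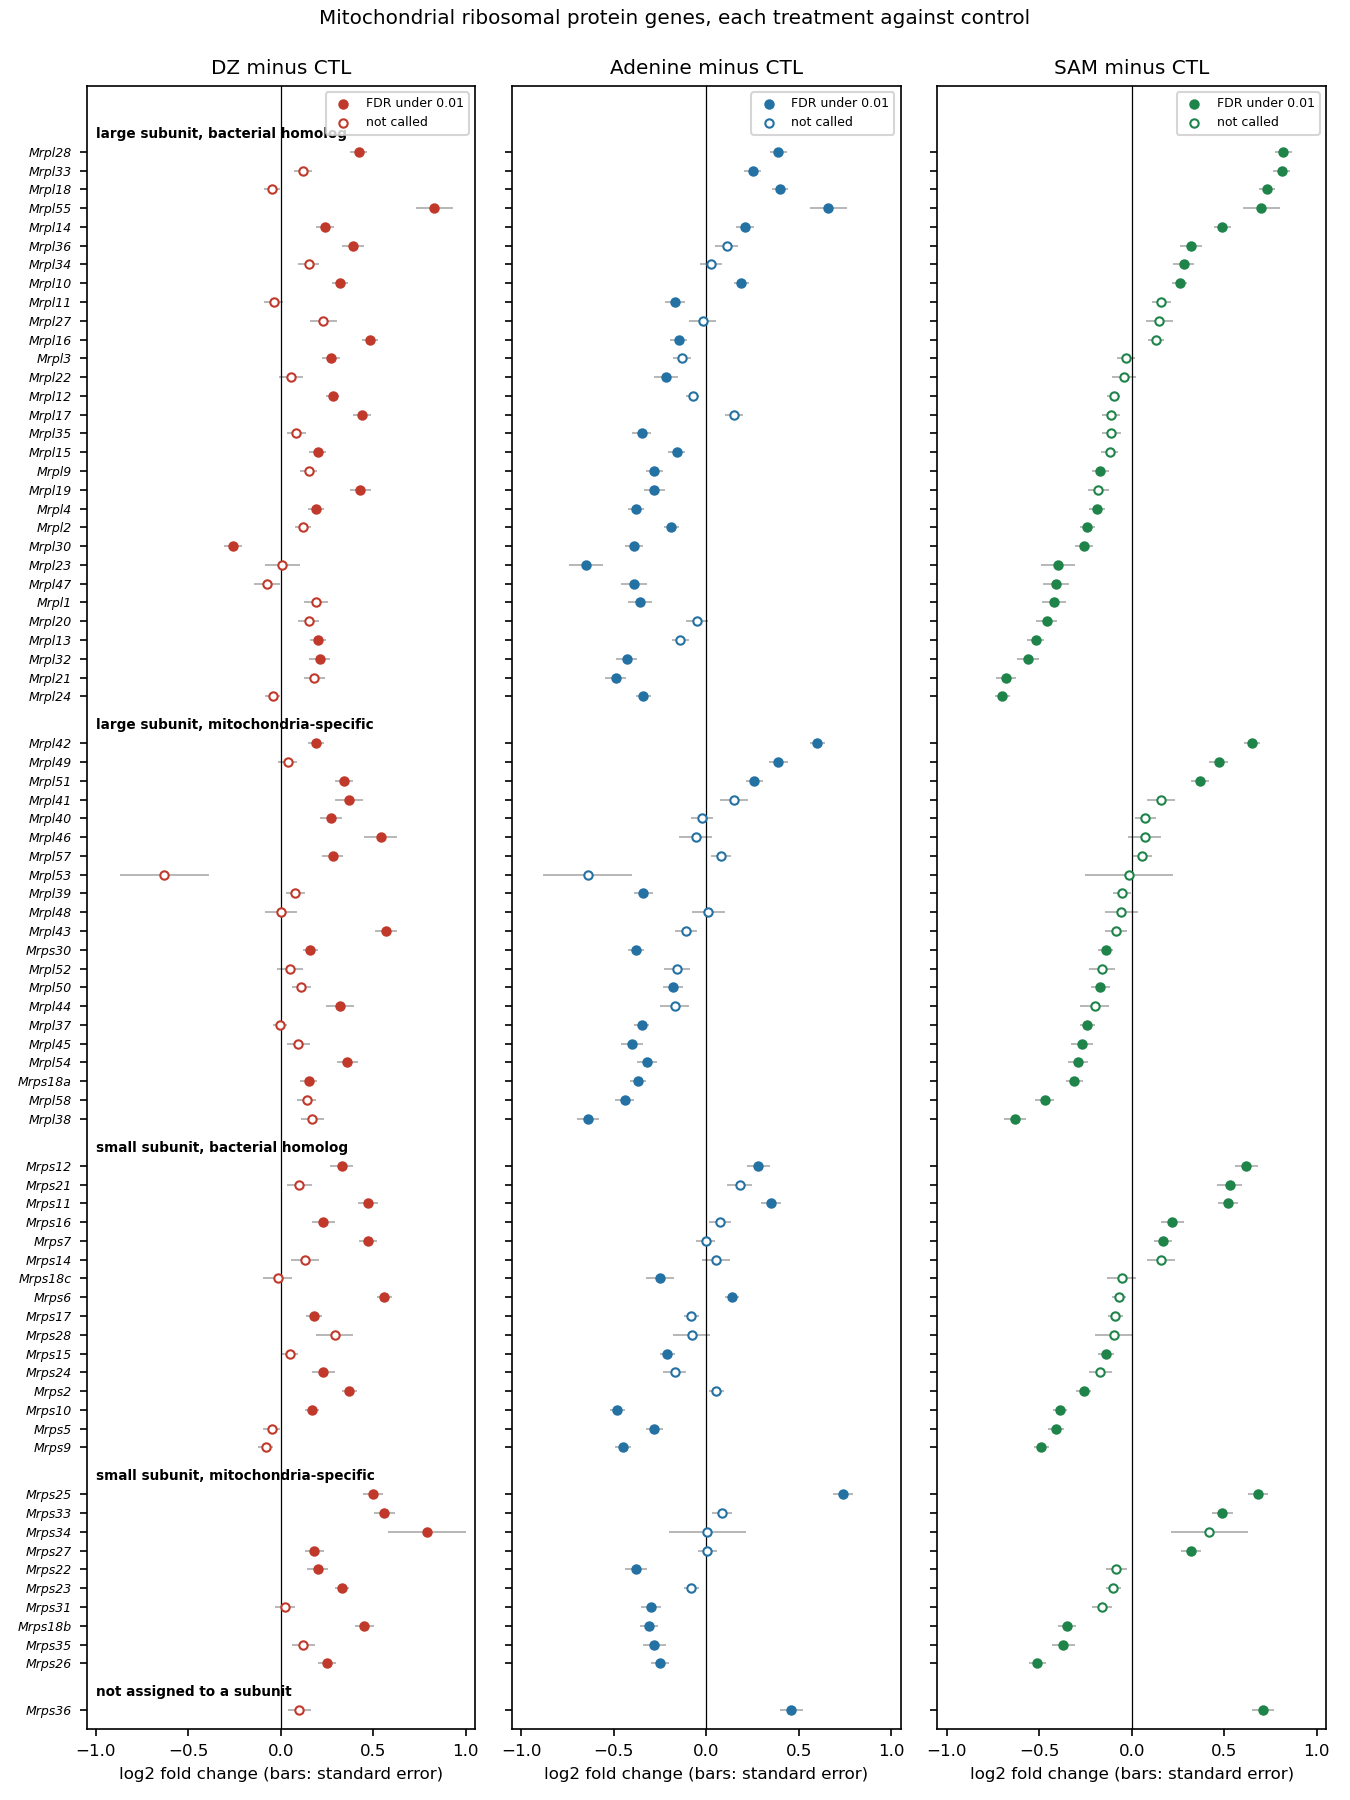
Log2 fold change against CTL (horizontal axis, bars: standard error) of all 78 genes under DZ, adenine, and SAM, in subunit groups and ordered by the SAM value within each. Filled points passed an FDR of 0.01 in limma and open points did not; under DZ 42 filled points lie right of 0 and 1 left of it, against 14 and 35 under adenine and 20 and 28 under SAM.

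Mrpl55 (chromosome 11, 59093303 to 59098353), a large subunit protein and the member with the lowest level, had 2.23, 2.05, and 2.53 log2 CPM in the CTL dishes and 3.12, 3.05, and 3.13 in DZ. Its rise by 0.83 ± 0.1 (log2 fold change ± standard error, adjusted p = 8.08e-06, limma) was the largest of all members under DZ, and the groups did not overlap. Mrpl43 (chromosome 19, 44988010 to 44995671), a protein particular to the mitochondrial large subunit, had 5.08, 5.06, and 5.09 in CTL against 5.58, 5.7, and 5.65 in DZ. This was a rise by 0.57 ± 0.06 (adjusted p = 1.25e-06), and the groups did not overlap. Its level in adenine, 5.12, 4.82, and 4.96, and in SAM, 5.02, 4.96, and 5, passed no test against CTL.

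Mrps33, of the small subunit, had 4.08, 4.27, and 4.24 log2 CPM in CTL and 4.73, 4.77, and 4.77 in DZ, a rise by 0.56 ± 0.056 (adjusted p = 7.98e-07, limma). Mrps6, a small subunit protein with a bacterial homolog, rose from 5.1, 5.01, and 5.11 to 5.63, 5.6, and 5.66, by 0.56 ± 0.039 (adjusted p = 1.63e-08). Neither gene had overlapping groups. The exons of Mrps6 overlap those of Slc5a3 on the same strand, and Slc5a3, a myo-inositol transporter, moved the other way under DZ, by -0.73. Mrpl16 of the large subunit rose by 0.48 ± 0.044 and Mrps7 of the small subunit by 0.47 ± 0.05.

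Mrps34 had the second largest estimate under DZ, 0.79 ± 0.21 (adjusted p = 0.00465, limma), and the most uneven dishes after Mrpl53. Its CTL dishes stood at 4.95, 3.91, and 4.99 log2 CPM and its DZ dishes at 5.55, 5.46, and 5.23, so that the groups did not overlap but 1 CTL dish lay far below the other 2. Without CTL replicate 2 the estimate was 0.44 (adjusted p = 0.00602), which kept the call. The call was lost without DZ replicate 1 (adjusted p = 0.0203), without DZ replicate 2 (adjusted p = 0.0163), without a variance trend (adjusted p = 0.018), and with robust empirical Bayes (adjusted p = 0.0374). Its exons overlap on the same strand with those of Nme3, which is not in the table, and on the opposite strand with those of Eme2 and Mapk8ip3. The strand setting of the authors' counting is not given in the sources used here.

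Mrps11 and Mrpl46 lie head to head on opposite strands of chromosome 7, and their annotated starts, 412 bases apart, each fall inside the body of the other gene. The Mrps11 window shown above holds the annotated start of Mrps11 but not that of Mrpl46 at 78433279. The RefSeq start of Mrpl46 lies 442 bases from its annotated start. Mrps11, of the small subunit, had 4.16, 4.17, and 4.3 log2 CPM in CTL and 4.69, 4.72, and 4.64 in DZ, and Mrpl46, of the large subunit, had 3.59, 3.58, and 3.53 in CTL and 4.11, 4.03, and 4.18 in DZ. Both rose under DZ, by 0.47 ± 0.055 and 0.54 ± 0.088. Under adenine and SAM, Mrps11 rose by 0.35 and 0.52, while Mrpl46 had values of -0.057 and 0.07 that passed no test. The difference between the genes was not tested, and their exons overlap on opposite strands.

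Mrpl30, a large subunit protein with a bacterial homolog, was the only member called lower under DZ. It stood at 5.72, 5.8, and 5.76 log2 CPM in CTL and 5.54, 5.48, and 5.49 in DZ, and fell by 0.26 ± 0.049 (adjusted p = 0.00034, limma). It also fell under adenine (by 0.39) and SAM (by 0.26), although with plain read totals as scaling the SAM value no longer passed the test. Mrpl53 had the lowest estimate under DZ, -0.63 ± 0.24, but its dishes varied too much for a call (adjusted p = 0.0331), with 3.16, 3.17, and 3.64 in CTL, 2.61, 2.86, and 2.62 in DZ, and 2.9, 3.23, and 1.92 in adenine.

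Under adenine, more members fell than rose: 14 rose, 35 fell, and 29 were not called. Of all genes 61.6% were called in this comparison, 30.6% as higher and 31% as lower, so the 17.9% of members called higher stood below the background and the 44.9% called lower stood above it. The median was -0.15, against -0.003 for all genes. All 3 adenine dishes were above all CTL dishes in 17 members and below in 41, where 37% and 37.7% of all genes had such groups. By group, 6 rose and 16 fell of the 30 large subunit proteins with a bacterial homolog, 3 and 9 of the 21 particular to mitochondria, 3 and 5 of the 16 small subunit proteins with a bacterial homolog, and 1 and 5 of the 10 particular to mitochondria.

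Mrps25 of the small subunit had the largest rise under adenine, from 4.3, 4.25, and 4.41 log2 CPM in CTL to 5.1, 4.96, and 5.1. This was 0.74 ± 0.054 (adjusted p = 6.77e-09, limma), or 1.66-fold, and the groups did not overlap. Mrpl42 of the large subunit rose by 0.6 ± 0.042, from 5.26, 5.24, and 5.35 to 5.85, 5.88, and 5.93, and Mrpl55 by 0.66 ± 0.1. In Mrps25 the DZ dishes, at 4.85, 4.84, and 4.76, lay between CTL and adenine, and the direct test of DZ minus adenine gave -0.23 (adjusted p = 0.00114).

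Mrpl38 (chromosome 11, 116022641 to 116029700), a protein of the central protuberance of the large subunit, had one of the largest falls under adenine. It stood at 5.89, 5.86, and 5.86 log2 CPM in CTL, 6.04, 6.04, and 6.03 in DZ, 5.27, 5.2, and 5.23 in adenine, and 5.17, 5.12, and 5.43 in SAM. The fall by 0.64 ± 0.061 under adenine (adjusted p = 1.5e-07, limma) was close to that by 0.63 ± 0.061 under SAM, and the direct test of SAM minus adenine gave 0.0061 ± 0.061 (adjusted p = 0.94). Under DZ its value of 0.17 was not called, and DZ minus adenine was 0.8 (adjusted p = 1e-08), the largest of all members in that comparison.

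Mrpl23, whose gene lies beside the imprinted gene H19 and whose protein sits at the end of the exit tunnel, stood at 4.52, 4.37, and 4.52 log2 CPM in CTL and 3.99, 3.58, and 3.9 in adenine. It fell by 0.65 ± 0.092 (adjusted p = 1.32e-05, limma), the largest fall under adenine. Its pseudogene Mrpl23-ps1, which was also in the table and could share reads with it, fell by 0.53 under adenine and by 0.50 under SAM. Mrps10 and Mrps9 of the small subunit fell by 0.48 ± 0.038 and 0.45 ± 0.041, Mrpl58, a peptidyl-tRNA hydrolase that became part of the large subunit, by 0.44 ± 0.051, and Mrpl32, a large subunit protein that is matured by a protease of the inner membrane, by 0.43 ± 0.058. Mrpl45, which sits at the membrane side of the tunnel exit, fell by 0.4 ± 0.06.

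Under SAM the members went both ways: 20 rose, 28 fell, and 30 were not called. Of all genes 69.3% were called, 33.7% as higher and 35.7% as lower, so the shares of members, 25.6% and 35.9%, were below the background for rises and at it for falls. The median was -0.093, against -0.0154 for all genes, and with plain read totals as scaling it turned to 0.029, against 0.107 for all genes, with 27 members higher and 17 lower. Under that scaling 8924 of all 12591 genes were called, 5462 of them as higher. Relative to the median of all genes, the members' median stood 0.078 lower under both scalings. All 3 SAM dishes lay above all CTL dishes in 22 members and below them in 36, where 37.6% and 40% of all genes had such groups.

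The spread of the members was wide under SAM, with quartiles at -0.26 and 0.21 and values from -0.7 to 0.82, and it ran through every group. Of the 30 large subunit proteins with a bacterial homolog 8 rose and 12 fell, of the 21 particular to mitochondria 3 rose and 8 fell, of the 16 small subunit proteins with a bacterial homolog 5 rose and 5 fell, and of the 10 particular to mitochondria 3 rose and 3 fell. Over all genes the quartiles were -0.35 and 0.33, so that the members spread less than the table as a whole.

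Mrpl28 (chromosome 17, 26342469 to 26345588), a large subunit protein with a bacterial homolog, rose most under SAM. Its dishes stood at 5.32, 5.42, and 5.48 log2 CPM in CTL, 5.78, 5.86, and 5.85 in DZ, 5.83, 5.76, and 5.79 in adenine, and 6.17, 6.2, and 6.32 in SAM. No treated dish overlapped with CTL, and the rise under SAM was 0.82 ± 0.048 (adjusted p = 3.41e-10, limma), or 1.77-fold. The DZ and adenine dishes overlapped (DZ minus adenine 0.035, adjusted p = 0.529), while SAM exceeded adenine by 0.43 (adjusted p = 2.77e-06).

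Mrpl33 rose from 5.29, 5.46, and 5.35 log2 CPM in CTL to 6.18, 6.17, and 6.18 in SAM, by 0.81 ± 0.048 (adjusted p = 3.49e-10, limma). Adenine gave 5.53, 5.7, and 5.64, a rise by 0.25, and SAM minus adenine, 0.56 (adjusted p = 1.77e-07), was the largest of the members called higher in that comparison. Mrpl18, which sits in the central protuberance, had 4.98, 4.98, and 5.04 in CTL, 5.43, 5.38, and 5.39 in adenine, and 5.75, 5.64, and 5.79 in SAM, with DZ at 4.93, 4.97, and 4.95. Adenine raised it by 0.4 ± 0.043 and SAM by 0.73 ± 0.043, while its DZ value of -0.048 was not called. The rises of Mrps36 were 0.46 ± 0.061 (adenine) and 0.71 ± 0.061 (SAM), and those of Mrps12, which lies at the decoding site of the small subunit, were 0.28 ± 0.062 and 0.62 ± 0.062.

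Mrpl24 (chromosome 3, 87826798 to 87832192), an assembly protein of the large subunit near the tunnel exit, fell most under SAM. It stood at 5.96, 6.03, and 6.06 log2 CPM in CTL, 5.96, 6.02, and 5.94 in DZ, 5.63, 5.68, and 5.74 in adenine, and 5.3, 5.31, and 5.36 in SAM. DZ overlapped with CTL, adenine fell by 0.34 ± 0.04, and SAM fell by 0.7 ± 0.04 (adjusted p = 2.45e-10, limma), with SAM minus adenine at -0.36 (adjusted p = 2.72e-06).

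Mrpl21, of the same subunit, had 5.62, 5.55, and 5.62 log2 CPM in CTL, 5.75, 5.8, and 5.77 in DZ, 5.19, 5.11, and 5.01 in adenine, and 4.83, 4.86, and 5.05 in SAM. It fell by 0.49 ± 0.056 and 0.68 ± 0.056 under adenine and SAM, and SAM minus DZ was -0.86 (adjusted p = 1.33e-09), the lowest of all members. Mrpl13 had 6.52, 6.48, and 6.56 in CTL and 5.94, 5.96, and 6.09 in SAM, a fall by 0.52 ± 0.044, whereas its adenine value of -0.14 was not called (SAM minus adenine -0.38, adjusted p = 4.01e-06). Mrps26 of the small subunit fell by 0.51 ± 0.047 and Mrpl20 of the large subunit by 0.46 ± 0.058 under SAM.

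**Figure D3:**
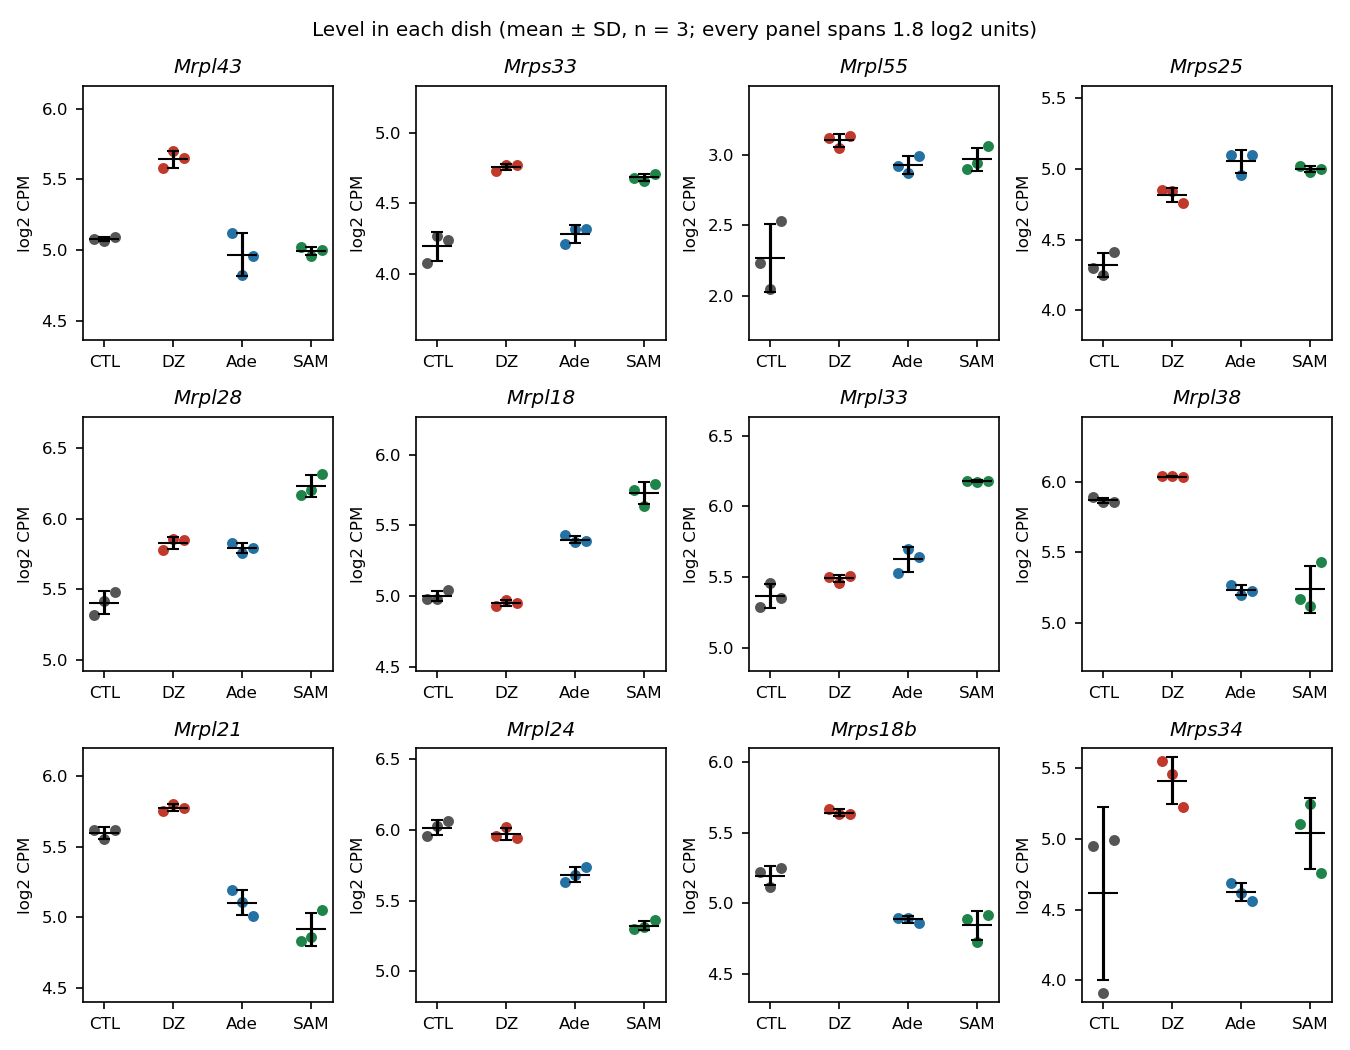
Log2 CPM (vertical axis, every panel spans 1.8 units) of 12 named members in each dish of CTL, DZ, adenine (Ade), and SAM, with the mean ± SD of 3. Mrpl38 and Mrps18b are above CTL in DZ and below it in adenine and SAM, Mrpl33 and Mrpl18 stand highest in SAM, and 1 CTL dish of Mrps34 lies at 3.91, apart from the other 2.

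The 3 paralogs of a small bacterial ribosomal protein, Mrps18a, Mrps18b, and Mrps18c, take separate places in the mitochondrial ribosome, the first in the large and the others in the small subunit. Mrps18b had 5.22, 5.12, and 5.25 log2 CPM in CTL, 5.67, 5.63, and 5.63 in DZ, 4.9, 4.9, and 4.86 in adenine, and 4.89, 4.73, and 4.92 in SAM, with no overlap between CTL and any treatment. It rose by 0.45 ± 0.051 under DZ and fell by 0.31 ± 0.051 and 0.35 ± 0.051 under adenine and SAM. Mrps18a went the same ways, with 0.15, -0.37, and -0.31, all called. Mrps18c had -0.016 and -0.055 under DZ and SAM, which were not called, and fell by 0.25 ± 0.078 under adenine (adjusted p = 0.0091, limma), a call close to the threshold.

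Mrpl12, a protein of the stalk that recruits translation factors, rose by 0.28 ± 0.036 under DZ and had -0.073 and -0.098 under adenine and SAM, which were not called. Mrps30 rose by 0.16 ± 0.041 under DZ and fell by 0.38 ± 0.041 and 0.14 ± 0.041 under adenine and SAM. Mrpl49, a large subunit protein particular to mitochondria, rose by 0.39 ± 0.052 and 0.47 ± 0.052 under adenine and SAM. The 6 members called in no comparison with CTL were Mrpl27, Mrpl48, Mrpl52, Mrpl53, Mrps14, and Mrps28. Mrpl48, of the large subunit, had -0.00028 ± 0.088, 0.011 ± 0.088, and -0.056 ± 0.088.

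The 3 treatments share their CTL dishes, so they were set against each other directly. DZ exceeded adenine in 55 members and lay below it in 5, with a median of 0.32, where 32.1% of all genes were called higher, 32.2% lower, and 64.3% either way. Among the 10 small subunit proteins particular to mitochondria 9 were higher in DZ than in adenine and 1, Mrps25, was lower. After Mrpl38, the largest values were those of Mrps34 at 0.79 (adjusted p = 0.00341, limma) and Mrps18b at 0.76 (adjusted p = 2.74e-09). The lowest were those of Mrpl18 at -0.45, Mrpl42 at -0.41, and Mrps36 at -0.36, the last of which Mrpl49 equalled within rounding.

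SAM was called higher than DZ in 11 members and lower in 47, with a median of -0.29, where 34% and 35% of all genes were called higher and lower and 69% either way. Mrpl18, Mrpl33, and Mrps36 were highest, at 0.78, 0.69, and 0.61, and Mrpl21, Mrpl38, and Mrps18b lowest, at -0.86, -0.8, and -0.8. SAM exceeded adenine in 19 members and lay below it in 7, with a median of 0.081 and 52 not called, where 20.8% and 22% of all genes were called higher and lower and 42.7% either way. The values called highest were those of Mrpl33, Mrpl28, and Mrps33, at 0.56, 0.43, and 0.41, and the lowest those of Mrpl20, Mrpl13, and Mrpl24, at -0.41, -0.38, and -0.36. In the large subunit proteins particular to mitochondria 2 of 21 were called higher in SAM than in adenine and none lower, against 10 and 4 of the 30 with a bacterial homolog.

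The genes for ribosomal proteins of the cytosol took another course. Of 76, 72 fell under DZ, 76 under adenine, and 75 under SAM, and none rose, with medians of -0.55, -1.11, and -0.92. Genes for subunits of the respiratory chain, in whose assembly mitochondrial translation takes part, numbered 80, with the Atp5 genes of the ATP synthase included. Among them was the retrogene Cox5b-ps, which is annotated as protein-coding and could share reads with Cox5b. Of the 80, 8 were higher and 23 lower under DZ, 14 and 36 under adenine, and 25 and 31 under SAM. These shares of 10% and 28.8%, 17.5% and 45%, and 31.2% and 38.8% compare with those of all genes. The latter were 22.6% and 23.4%, 30.6% and 31%, and 33.7% and 35.7%. The medians of the 80 genes were -0.066, -0.061, and 0.011. The adenine median was 0.0 with plain read totals, and the SAM median turned to -0.028 with median centring. Under DZ the medians were thus 0.19 for mitochondrial ribosomal proteins and -0.55 for cytosolic ones, and no test of the difference between families was run.

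**Figure D4:**
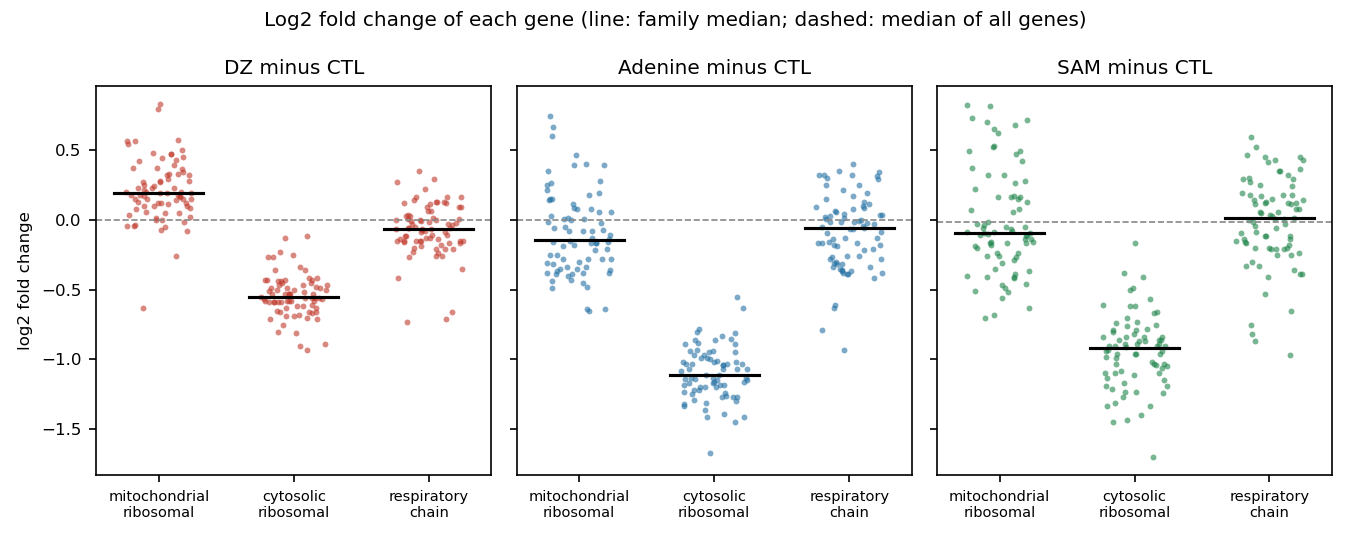
Log2 fold change against CTL (vertical axis) of each gene for mitochondrial ribosomal proteins (78), cytosolic ribosomal proteins (76), and respiratory chain subunits, Atp5 genes included (80). Lines are family medians and the dashed line is the median of all genes. The cytosolic ribosomal protein genes have medians of -0.55, -1.11, and -0.92, below 0 under every scaling tried, and the mitochondrial ones have medians of 0.19 under DZ, -0.15 under adenine, and -0.093 under SAM, the last of which turns to 0.029 with plain read totals as scaling.

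Proteins of the mitochondrial ribosome also come from 5 genes without an Mrp symbol. Aurkaip1, of the small subunit, stood at 5.72, 5.61, and 5.67 log2 CPM in CTL and 6.08, 6.12, and 6.15 in DZ, rose by 0.45 ± 0.05 under DZ, and fell by 0.21 ± 0.05 and 0.29 ± 0.05 under adenine and SAM. Gadd45gip1, of the large subunit, stood at 5.6, 5.63, and 5.66 in CTL and 6.33, 6.33, and 6.38 in SAM, with a rise by 0.71 ± 0.037, and Chchd1, of the small subunit, rose by 0.35 under DZ and 0.49 under SAM. Dap3 and Ptcd3 were not called under DZ and fell by 0.14 and 0.16 under SAM. Of these 5 genes 3 rose under DZ and none fell, 1 rose and 2 fell under adenine, and 2 rose and 3 fell under SAM. Of all genes 22.6% rose and 23.4% fell under DZ, 30.6% and 31% under adenine, and 33.7% and 35.7% under SAM.

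Of 22 assembly factors of the mitochondrial ribosome, 7 rose and 1 fell under DZ, 1 rose and 10 fell under adenine, and 3 rose and 11 fell under SAM. The shares called lower, 4.55%, 45.5%, and 50%, compare with 23.4%, 31%, and 35.7% of all genes, and those called higher, 31.8%, 4.55%, and 13.6%, with 22.6%, 30.6%, and 33.7%. C1qbp, a matrix protein needed for mitochondrial translation, fell by 0.8 ± 0.034 under adenine and 1.01 ± 0.034 under SAM, from 7.84, 7.83, and 7.88 log2 CPM in CTL to 6.84, 6.76, and 6.91 in SAM. Ngrn, which binds the large rRNA, fell by 0.45 and 0.87, and Fastkd2, an RNA-binding protein, and Rcc1l rose by 0.49 and 0.45 under DZ.

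The 7 enzymes that methylate mitochondrial rRNA use SAM as their methyl donor. Of these, 1 rose under DZ, 1 rose and 2 fell under adenine, and 2 rose and 2 fell under SAM. The shares called higher and lower were 14.3% and 0%, 14.3% and 28.6%, and 28.6% and 28.6%. For all genes they were 22.6% and 23.4%, 30.6% and 31%, and 33.7% and 35.7%. Nsun4, which methylates the small rRNA and takes part in joining the subunits, had 4.64, 4.73, and 4.73 log2 CPM in CTL, 5.16, 5.11, and 5.17 in DZ, 4.31, 4.3, and 4.25 in adenine, and 3.7, 3.78, and 3.64 in SAM. It rose by 0.45 ± 0.051 under DZ and fell by 0.41 ± 0.051 and 0.99 ± 0.051 under adenine and SAM, with no overlap between any pair of groups. Mettl15, another methyltransferase of the small rRNA, rose by 1.13 ± 0.15 and 1.18 ± 0.15 under adenine and SAM, at a low level of 0.89, 0.94, and 0.53 in CTL.

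Of 15 translation factors 6 rose and 1 fell under DZ, 3 rose and 5 fell under adenine, and 5 rose and 6 fell under SAM. Under SAM the shares of 33.3% and 40% were near the 33.7% and 35.7% of all genes. Those of 20% and 33.3% under adenine compare with 30.6% and 31%, and those of 40% and 6.67% under DZ with 22.6% and 23.4%. Tufm, the elongation factor that brings tRNA to the ribosome, rose by 0.35 under DZ, the elongation factor Guf1 fell by 0.41 under DZ and 1.25 under SAM, and Oxa1l, which inserts new proteins into the inner membrane, fell by 0.6 under adenine. Of 10 factors of mitochondrial transcription and mRNA 3 rose and 1 fell under DZ, 2 rose and 4 fell under adenine, and 2 rose and 6 fell under SAM. The shares were 30% and 10%, 20% and 40%, and 20% and 60%. They compare with 22.6% and 23.4%, 30.6% and 31%, and 33.7% and 35.7% of all genes. Among these 10 factors Lrpprc, which stabilizes mitochondrial mRNAs, fell by 0.18, 0.76, and 1.37. It stood at 6.06, 6.01, and 5.95 in SAM, from 7.37, 7.38, and 7.39 in CTL.

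The table held 8 regulators of mitochondrial biogenesis, without Ppargc1a and Ppargc1b. Of these 8, 4 rose and 1 fell under DZ, 3 rose and 1 fell under adenine, and none rose and 4 fell under SAM. The shares were 50% and 12.5%, 37.5% and 12.5%, and 0% and 50%. Those of all genes were 22.6% and 23.4%, 30.6% and 31%, and 33.7% and 35.7%. Nrf1, the factor of the NRF1 motif, had 5.08, 5.11, and 5.23 log2 CPM in CTL and 5.63, 5.64, and 5.61 in DZ, rose by 0.48 ± 0.042 under DZ, and fell by 0.22 ± 0.042 under SAM. Myc, a transcription factor of growth that acts on ribosomal genes, had 8.13, 8.15, and 8.12 in CTL and 8.38, 8.44, and 8.47 in DZ, rose by 0.3 ± 0.03 under DZ, and fell by 0.31 ± 0.03 and 0.69 ± 0.03 under adenine and SAM. Gabpa and Yy1 rose by 0.15 and 0.21 under DZ and by 0.12 and 0.1 under adenine, and were not called under SAM.

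The RNA partners of these proteins are the 2 rRNAs of the mitochondrial genome, which were measured here in libraries of polyadenylated RNA. The small rRNA mt-Rnr1 had 7.03, 7.08, and 7.11 log2 CPM in CTL, 6.72, 6.57, and 6.68 in DZ, 7.22, 7.26, and 7.23 in adenine, and 7.51, 7.58, and 7.7 in SAM. It fell by 0.42 ± 0.046 under DZ and rose by 0.16 ± 0.046 and 0.52 ± 0.046 under adenine and SAM, with no overlap between any pair of groups. The large rRNA mt-Rnr2 fell by 0.18 ± 0.051 under DZ and rose by 0.32 ± 0.051 under SAM. Over the 15 mitochondrially encoded mRNAs and rRNAs 3 fell under DZ, 1 rose and 8 fell under adenine, and 2 rose and 9 fell under SAM. The shares called higher and lower were 0% and 20%, 6.67% and 53.3%, and 13.3% and 60%. Those of all genes were 22.6% and 23.4%, 30.6% and 31%, and 33.7% and 35.7%. The rises under SAM were those of the rRNAs, while mt-Cytb and mt-Nd3, mRNAs for subunits of the respiratory chain, fell by 1.02 and 0.85.

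Some members share sequence with other rows. Of the 78 genes, 8 have exons that overlap another gene on the same strand, in 4 cases with a gene of the table, and 57 have such an overlap on the opposite strand, in 33 cases with a gene of the table. Among the members described above, Mrpl18 overlaps with Tcp1, Mrpl24 with Mettl25b, Mrpl33 with AI839979, Mrpl43 with Sema4g and Twnk, Mrpl21 with Ighmbp2, Mrpl13 with Mtbp, Mrps18b with Ppp1r10, Mrpl49 with Syvn1, and Mrps25 with Nr2c2, all on the opposite strand. Further overlaps on that strand are those of Mrps12 with Sars2, Mrpl16 with Stx3, Mrps7 with Gga3 and Mif4gd, and Mrps18c with Abraxas1 and Helq. The same holds for Mrpl2 with Klc4, Mrpl27 with Eme1, Mrpl48 with Rab6a, and Mrps14 with Cacybp. Among members named further below, Mrpl44 overlaps on that strand with Wdfy1, Mrpl47 with Actl6a and Ndufb5, Mrpl51 with Ncapd2, and Mrpl57 with Ska3. The pseudogene Mrpl48-ps, in the table at 0.89, 1.63, and 0.59 log2 CPM in CTL, was called in no comparison. How far such overlaps move the members' values was not tested.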

How the data were processed

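Polyadenylated RNA of 12 dishes, 3 in each of 4 groups, was sequenced from stranded libraries. Reads were trimmed by the authors with Trimmomatic and mapped to GRCm39 by HISAT2 under the GENCODE vM27 annotation, transcripts were quantified with StringTie, and genes of at least 1 CPM in all samples went into edgeR. Tool versions and the strand setting of the counting are not given in the sources used here. The deposited values are the authors' log2 CPM on normalized library sizes for 12591 genes. They contain a prior count of 2, so a fold change is a difference on that scale. Taking off the prior gave whole reads for 100% of the values (within 0.05, largest distance 0.0025), and thereby the depth of each library.

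Groups came from the sample titles. All genes were fitted with limma 3.58.1 in R 4.3.3 (lmFit, contrasts, and eBayes with trend), with all 12 libraries in the model, 6 comparisons, and Benjamini-Hochberg adjustment over all genes at an FDR of 0.01. The fit and the recovery of reads were tested on simulated data. Symbols, positions, and lengths come from GENCODE vM39 on GRCm39, in which 12575 identifiers were found, and promoter windows from RefSeq, placed in GRCm39 by exact match. The rule for named members took the 8 largest rises and falls called in each comparison with CTL, the 3 largest each way in the direct comparisons, up to 5 members called in no comparison with CTL, the Mrps18 paralogs, and Mrpl12, Mrpl23, Mrpl58, Mrps30, and Mrps36. From each pathway list it took the 2 genes with the smallest adjusted p per comparison. Members and pathway genes outside the rule, such as Mrpl53, Mrps7, Mrpl2, Dap3, and Ptcd3, were named after their values were seen. The members, lists, and rules were chosen with earlier results of these data known. Summaries and plots were made in Python 3.11.15 (numpy 2.4.6, pandas 2.3.3, matplotlib 3.10.9).

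As alternatives, the fit was repeated with robust or untrended eBayes, with a filter at a mean log2 CPM of 3, with plain read totals, median centring, or quantile normalization, with voom on the recovered reads, with a pseudocount of 1 CPM, at an FDR of 0.05, with a required absolute log2 fold change of 0.5, on the compared groups only, on protein-coding genes only, with a replicate block, and without each library in turn.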

Additional observations from a re-analysis of the deposited data

How the results depend on the processing

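The members' median kept its direction in every alternative for DZ, for adenine, and for the 3 direct comparisons. It turned for SAM when plain read totals set the scaling, from -0.093 to 0.029 (27 higher and 17 lower, against 20 and 28), where the median of all genes moved from -0.015 to 0.107. The same scaling gave -0.084 for adenine in place of -0.146 (16 higher and 28 lower, against 14 and 35), 0.141 for SAM minus adenine in place of 0.081 (29 higher and 7 lower, against 19 and 7), 0.279 for DZ minus adenine in place of 0.315, and -0.193 for SAM minus DZ in place of -0.289. Of all 12591 genes, plain read totals gave 8924 called for SAM, 5462 of them higher. They gave 7836 for adenine, 4572 of them higher, and 5654 for SAM minus adenine, 3573 of them higher. Median centring gave members' medians of -0.197, -0.132, and 0.352 for adenine, SAM, and DZ minus adenine, and quantile normalization -0.19, -0.147, and 0.348. As a distance from the median of all genes, the members' median ranged over these scalings from 0.169 to 0.196 (DZ), from -0.158 to -0.142 (adenine), and from -0.119 to -0.078 (SAM).

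A required absolute log2 fold change of 0.5 left 7, 5, and 16 members for DZ, adenine, and SAM, and 1, 19, and 21 for SAM minus adenine, DZ minus adenine, and SAM minus DZ, against 43, 49, 48, 26, 60, and 58 without it. Of all 12591 genes it left 1536, 3386, 4425, 1215, 3441, and 4340 in the same order, a larger share than of the members each time. Leaving out each library in turn gave 35 to 42, 42 to 48, 44 to 51, 23 to 27, 53 to 60, and 52 to 56 members in the same order. The members' medians were then -0.131 to -0.078 for SAM, 0.049 to 0.104 for SAM minus adenine, and -0.321 to -0.255 for SAM minus DZ. Of all 12591 genes, 4953 to 5244, 7175 to 7272, 8223 to 8615, 4490 to 4955, 7521 to 7598, and 8170 to 8604 were called. Correlations of same-numbered libraries ran from -0.142 to 0.181, and those of differently numbered libraries of separate groups from -0.15 to 0.117. With so few dishes per group, these values cannot exclude a pairing of the dishes. With a replicate block 41, 46, and 48 members were called for DZ, adenine, and SAM, and 25, 58, and 59 in the direct comparisons. Of all 12591 genes, 5762, 7739, and 8734 were called with the block, and 5337, 8090, and 8685 in the direct comparisons.

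Of the values of named members under the alternatives, 2041 kept direction and side of the threshold, 102 lost and 38 gained a call, and 39 changed sign, none of them called at first. With plain read totals the values that changed sign were those of Mrpl48 (0.025) and Mrps18c (0.0093) for DZ, Mrpl20 (0.011), Mrpl27 (0.044), and Mrpl46 (0.0044) for adenine, and Mrpl12 (0.024), Mrpl43 (0.035), Mrpl48 (0.066), Mrps18c (0.067), Mrps28 (0.024), and Mrps6 (0.053) for SAM. With median centring they were Mrpl23 for DZ (-0.0059) and Mrpl48 (-0.04) and Mrps34 (-0.045) for adenine. Quantile normalization turned Mrpl23 for DZ (-0.0041), Mrpl48 (-0.093), Mrps14 (-0.028), Mrps33 (-0.015), and Mrps34 (-0.063) for adenine, and Mrpl46 for SAM (-0.044), and voom turned Mrpl48 for DZ (0.005). Without 1 library, values spanned 0 for DZ in Mrpl23 (-0.042 to 0.035), Mrpl48 (-0.11 to 0.074), and Mrps18c (-0.055 to 0.011), for adenine in Mrpl27 (-0.077 to 0.043), Mrpl46 (-0.14 to 0.057), Mrpl48 (-0.095 to 0.085), Mrps14 (-0.00015 to 0.13), and Mrps34 (-0.35 to 0.19, the lowest without CTL replicate 2), and for SAM in Mrpl48 (-0.16 to 0.018), Mrps18c (-0.13 to 0.06), and Mrps28 (-0.23 to 0.013). The cause was not tested. Every member had at least 185 reads in each library, and the SD between dishes reached 0.68 in Mrpl53, so small changes of such genes could not be told from the spread between 3 dishes.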

Other observations

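Many mitochondrial ribosomal protein genes lie head to head with a neighbour on the other strand, a feature that was looked at after the values were seen. Of the 78 genes, 29 (37.2%) had a protein-coding neighbour whose annotated start was within 1 kb of their own, gene bodies that overlap at the starts included, against 1752 of 10948 protein-coding genes of the table (16%). Of these neighbours 27 were in the table, Mrps11 and Mrpl46 counting as neighbours of each other. Among the 27, 9 were called higher and 6 lower under DZ, 8 and 8 under adenine, and 10 and 8 under SAM, with medians of 0.14, -0.05, and 0.02. The shares called higher and lower, 33.3% and 22.2%, 29.6% and 29.6%, and 37% and 29.6%, compare with 22.6% and 23.4%, 30.6% and 31%, and 33.7% and 35.7% of all genes.

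Some neighbours had larger changes than the member beside them, in both directions. Eme1, which encodes part of a DNA endonuclease and starts 228 bases from Mrpl27, rose by 2.52 under adenine and 3.23 under SAM, where Mrpl27 was not called. Ska3, for a protein of the kinetochore, starts 330 bases from Mrpl57 and rose by 1.68 and 2.29, and Ncapd2, for a condensin subunit, starts 316 bases from Mrpl51 and rose by 1.56 and 1.87. Among the neighbours that fell, Wdfy1 beside Mrpl44 had -1.08 under adenine and -1.06 under SAM, Eme2 beside Mrps34 had -1.66 under SAM, Ppp1r10 beside Mrps18b had -0.84 under SAM, and Klc4 beside Mrpl2 had -0.6, -0.74, and -0.67 under DZ, adenine, and SAM. Fau, which encodes a protein of the cytosolic ribosome, starts 3 bases from Mrpl49, and fell by 0.48, 0.76, and 0.59 under DZ, adenine, and SAM, while Mrpl49 had 0.037 under DZ, which was not called, and rose by 0.39 and 0.47 under adenine and SAM. Other pairs moved the same way, with both genes called under adenine and SAM. Sars2 beside Mrps12 rose by 0.46 and 0.59 under adenine and SAM, where Mrps12 rose by 0.28 and 0.62. Ndufb5 beside Mrpl47 fell by 0.39 and 0.3, where Mrpl47 fell by 0.39 and 0.41. In both of these pairs the exons of the genes overlap on opposite strands, and the part of shared reads was not tested. The difference between the genes of a pair was not tested.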
